A study of Mus musculus with 8 samples.

Results

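miR-191 and miR-425 are encoded by neighbouring hairpins on mouse chromosome 9, and their reads were followed here in small RNA libraries of mature sperm. Fragments were assigned to a member when their annotation named mmu-mir-191 or mmu-mir-425 and no other RNA, which gave 2 of the 956 miRNA species present in the libraries and 183 distinct fragments. The study asked whether acute activation of AgRP neurons, the hypothalamic cells that drive hunger, alters the small RNA content of sperm. Male mice, 8 weeks old at surgery, carried an AAV-hM3Dq-mCherry injection in the arcuate nucleus on both sides; hM3Dq is an activating designer receptor for clozapine-N-oxide (CNO), and the vector expresses it only where Cre is present. Sperm were taken from the caudae epididymides 4 h after CNO at 1 mg/kg, given 1 h after food was removed and about 3 weeks after surgery. The 4 activated mice were Agrp Cre/+, in which Cre is driven by the Agrp gene, and the 4 control mice were Agrp +/+ and received the same vector and the same CNO, so that genotype and neuronal activation changed together and cannot be told apart. Each library came from 100 ng of RNA and held between 9297271 and 23123740 reads.

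A miRNA hairpin is cut from a longer primary transcript, and either of its arms, 5p or 3p, can be loaded into an Argonaute protein. The seed, a short stretch near the 5′ end, then directs the complex to its target mRNAs, so that a shift of the 5′ end changes the targets while a shift of the 3′ end does not move the seed. miR-191 is abundant in many tissues and is widely used as a reference for qPCR, and sperm gain part of their small RNA while passing through the epididymis.

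In the GRCm38 genome (mm10) the miR-191 hairpin lies on the plus strand at chr9:108568319-108568392 and the miR-425 hairpin at chr9:108568777-108568861, with 384 bases between them. GENCODE M21 places both inside exon 1 of a lincRNA transcript, 4833445I07Rik-201, while in 4833445I07Rik-202 the miR-191 hairpin is intronic. A second miRNA gene model, Gm24083, covers the miR-191 hairpin on the minus strand. RefSeq draws the protein-coding gene Dalrd3 from 108567484 to 108572773, across both hairpins, whereas the GENCODE model of Dalrd3 begins at 108569886, 1025 bases downstream of miR-425. The hairpins from the RefSeq table (GRCm38.p6, where both members matched) are shown because every fragment was placed on them, with the annotated mature sequences in capitals.
Mir191 hairpin: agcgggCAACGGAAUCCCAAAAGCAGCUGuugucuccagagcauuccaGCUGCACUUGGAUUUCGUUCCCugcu
Mir425 hairpin: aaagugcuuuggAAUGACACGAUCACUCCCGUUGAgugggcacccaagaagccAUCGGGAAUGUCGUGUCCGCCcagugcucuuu

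The mature sequences carry the seed, bases 2 to 8, in capitals, since the seed is what a reader needs to tell the arms apart.
mmu-miR-191-5p: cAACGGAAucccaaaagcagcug
mmu-miR-191-3p: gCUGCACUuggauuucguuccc
mmu-miR-425-5p: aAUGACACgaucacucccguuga
mmu-miR-425-3p: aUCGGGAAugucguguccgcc
The members had no seed in common. Among the 1738 mature entries of the RefSeq table, the seeds of miR-191-5p, miR-191-3p and miR-425-3p belonged to no other miRNA, and the seed of miR-425-5p, AUGACAC, was shared with mmu-miR-489-3p alone. No read in any library was annotated to miR-489, a count of 0 that allows at most 0.323 RPM (reads per 1000000 reads of the library) in the shallowest library, with counting error alone considered.

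Markers of other cells were examined before the members, because sperm collected from the epididymis can carry somatic cells. Control replicate 4 stood apart. The smooth muscle list (6 of 6 hairpins detected, led by miR-143) summed to 35290 RPM in this library and to between 138 and 392 RPM in the other 7. Of its 6 species, only miR-143 and miR-145a had enough reads to enter the tests of RNA species. They measured 17171 and 17715 RPM in this library. The epithelial list (7 of 7 hairpins, led by miR-200c) reached 19420 RPM there against 1085 to 3476 RPM elsewhere. The testis and sperm list (18 of 18 hairpins, led by miR-34b) was abundant in every library, at 57717, 42767, 34579 and 56295 RPM in activated replicates 1 to 4 and at 36984, 49019, 27178 and 42997 RPM in control replicates 1 to 4. The erythroid list (4 of 4 hairpins, led by miR-451a) measured 298, 83.5, 113 and 84.1 RPM in activated replicates 1 to 4 and 235, 532, 976 and 659 RPM in control replicates 1 to 4. The leukocyte list (5 of 5, led by miR-142a) ranged from 394 to 979 RPM over all 8. No list had a hairpin at 0. The part of such cells in the values of miR-191 and miR-425 was not tested, and results are given with and without control replicate 4 where it matters.

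A second division of the libraries concerned mitochondrial rRNA. Fragments of 12S and 16S rRNA made up 1.65 to 2.12% of reads in 4 libraries (activated replicates 1 and 4, control replicates 2 and 4) and 5.91 to 6.46% in the other 4, so that each set held 2 activated and 2 control libraries. The labels give no batch, so whether the sets were prepared or sequenced apart is not known.

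miR-191 was a dominant sperm miRNA. It measured 66282, 64916, 53982 and 84957 RPM in activated replicates 1 to 4 and 64347, 67182, 42492 and 60512 RPM in control replicates 1 to 4. Activated replicate 4 was the highest library and control replicate 3 the lowest, and the groups overlapped. The means were 67534 ± 12853 RPM (SD, n = 4) in activated and 58633 ± 11103 RPM (SD, n = 4) in control mice, a ratio of 1.15. The two-sided exact permutation test of the difference of means gave p = 0.40 (Benjamini-Hochberg p = 0.97 over 11 tests). Without control replicate 4 the control mean was 58007 RPM. The log2 ratio of the means, 0.20, rested more on other libraries, at 0.07 without activated replicate 4 and 0.08 without control replicate 3.

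miR-425 was less abundant by about an order of magnitude. It measured 5368, 6053, 6272 and 7104 RPM in activated replicates 1 to 4 and 6153, 5754, 4541 and 4973 RPM in control replicates 1 to 4. The 2 lowest libraries, replicates 3 and 4, were controls, but activated replicate 1 lay below control replicates 1 and 2, so that the groups overlapped here too. The means were 6199 ± 715 RPM (SD, n = 4) and 5355 ± 731 RPM (SD, n = 4), with p = 0.17 in the two-sided exact permutation test and 0.94 after adjustment over the same 11 tests. The log2 ratio of the miR-425 means was 0.21, and 0.14 without activated replicate 4 or without control replicate 3. With 4 mice against 4, the smallest p this exact permutation test can give is 0.0286. As these are bulk libraries, a change in the number of cells of a type and a change in RNA per cell cannot be told apart.

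**Figure D1:**
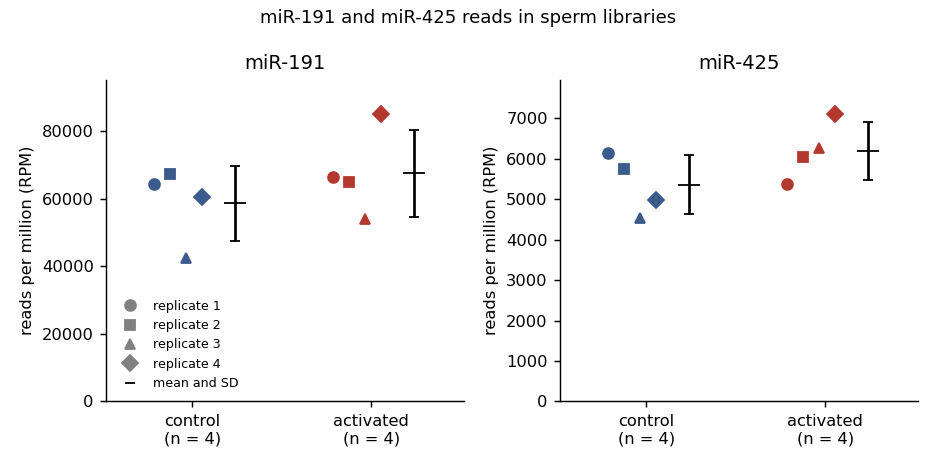
RPM of miR-191 (left) and miR-425 (right) in each sperm library, with the marker shape giving the replicate number and the bar the group mean and SD (n = 4). Activated and control libraries overlap for both members, from 42492 to 84957 RPM for miR-191 and from 4541 to 7104 RPM for miR-425.

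The same comparison was made by edgeR's quasi-likelihood test over all 618 annotated RNA species with at least 50 reads in at least 4 libraries, where a call required an adjusted p under 0.05 and an absolute log2 fold change above 1. miR-191 had a log2 fold change of 0.22 (SE 0.22, adjusted p = 0.67) and miR-425 one of 0.26 (SE 0.22, adjusted p = 0.65). Neither member was called, against a background of 0% (percent called among all species); before adjustment, 11 higher and 39 lower species had p under 0.05, and DESeq2 called 3 species (0.485%), none of them a member. Without control replicate 4 the values were 0.29 (adjusted p = 0.48) and 0.27 (adjusted p = 0.50). Other libraries lowered them: miR-191 was at 0.10 without activated replicate 4 and at 0.10 without control replicate 3, and miR-425 was at 0.17 without activated replicate 3. The estimates of both members lay near the median of the 304 tested miRNA species, which was 0.15, with 182 of them above 0. When the 304 miRNA species were normalised among themselves the median moved to −0.01, and the members to 0.02 and 0.04.

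By rank, miR-191 was second among the 956 miRNA species by mean RPM, behind reads shared by mir-16-1 and mir-16-2 (mean 84841 RPM), and well above miR-15b, the next (mean 21099 RPM). It ranked first in activated replicate 3 and control replicate 3 and second in the other 6 libraries. miR-191 made up 12.8 to 24.8% of all miRNA reads, and the lowest share was that of control replicate 4. miR-425 was the 7th by mean RPM, after miR-34b, let-7a and miR-34c. Its rank was 11, 7, 5 and 7 in activated replicates 1 to 4 and 6, 8, 6 and 21 in control replicates 1 to 4, so that its lowest place was again in the library with the most smooth muscle and epithelial miRNA.

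Both members varied little between mice relative to other miRNAs. The SD of log2 CPM (counts scaled in the same way, on TMM-adjusted library sizes) over the 8 libraries was 0.28 for miR-191 and 0.27 for miR-425, ranks 16 and 14 from the least variable of 304 species, whose median SD was 0.59. Within the 50 most abundant species they ranked 6 and 4. Part of that standing rested on control replicate 4, since without it the ranks were 31 and 25 and the median SD was 0.51. miR-16, another common qPCR reference and the most abundant species, had an SD of 0.59 (rank 153). The median SD of the 17 tested species of the qPCR reference list, both members included, was 0.58. A low SD was not particular to the members, since miR-423 (0.28, rank 18), miR-25 (0.33, rank 34) and miR-93 (0.36, rank 46) lay near them.

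**Figure D2:**
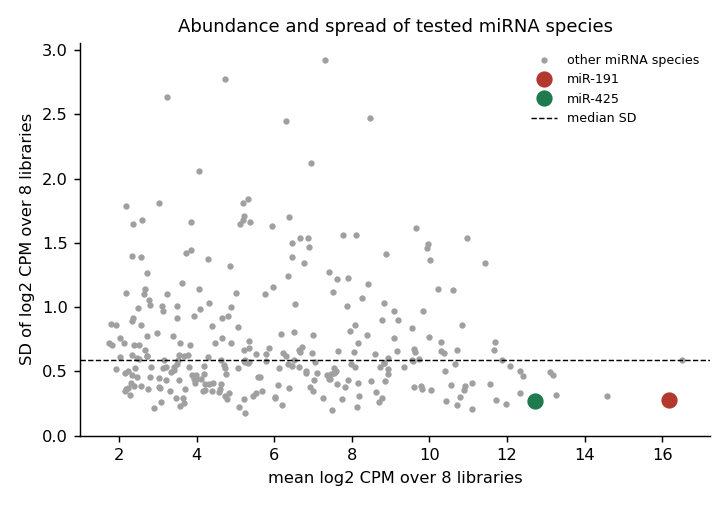
Each point is one of 304 tested miRNA species, with mean log2 CPM over 8 libraries on the horizontal axis and the SD of log2 CPM on the vertical axis. miR-191 (SD 0.28) and miR-425 (SD 0.27) combine high abundance with an SD below the median of 0.59 (dashed line).

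The miRNAs whose levels ran most nearly parallel to each member were found from the SD of the log2 ratio over the 8 libraries, among 237 species with a single annotation. For miR-191 they were miR-467d (SD 0.10), miR-292a (0.11), miR-25 (0.11), miR-130b (0.12) and miR-106b (0.13), and for miR-425 they were miR-375 (0.10), miR-130b (0.12), miR-470 (0.12), miR-423 (0.13) and miR-15b (0.17). The cluster partner was not among the closest: with an SD of 0.19, miR-425 came 23rd for miR-191 and miR-191 came 8th for miR-425. The median over all compared species was 0.54 for miR-191 and 0.60 for miR-425. Without control replicate 4 the partner came 25th and 12th, and 4 of the 5 closest species were the same for each member.

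The ratio of miR-191 to miR-425 reads is independent of library scaling. It was 12.35, 10.7, 8.61 and 12.0 in activated replicates 1 to 4 and 10.5, 11.7, 9.36 and 12.2 in control replicates 1 to 4. The group means were 10.9 ± 1.68 (SD, n = 4) and 10.9 ± 1.26 (SD, n = 4), and the log2 ratio did not separate the groups (two-sided exact permutation test, p = 0.97; Benjamini-Hochberg p = 0.97). The 4 libraries with little mitochondrial rRNA had ratios of 11.7 to 12.35 and the 4 with more had ratios of 8.61 to 10.7, with no overlap. This division was noticed after the values were seen and has no test; what underlies it was not tested. Within the low set the log2 ratio of activated minus control was 0.03 and within the high set −0.04.

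**Figure D3:**
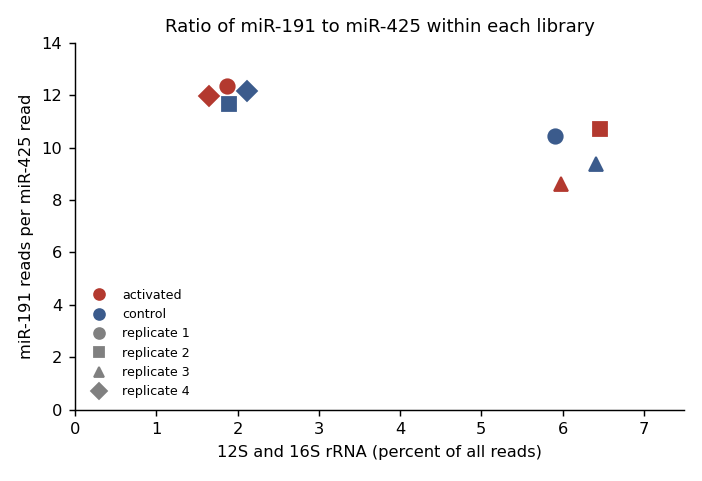
The number of miR-191 reads per miR-425 read in each library against the percentage of reads from 12S and 16S rRNA, with colour for the group and marker shape for the replicate number. Libraries at 1.65 to 2.12% rRNA lie at ratios of 11.7 to 12.35 and those at 5.91 to 6.46% at 8.61 to 10.7, in both groups.

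The arms were used very unequally. The 5p arm gave 99.9% of miR-191 reads and 99.1 to 99.5% of miR-425 reads in each library, and a fragment was given to an arm when at least 12 of its bases lay in the annotated mature sequence. miR-191-3p measured 71.0, 63.2, 40.8 and 66.6 RPM in activated replicates 1 to 4 and 60.8, 64.4, 37.2 and 63.5 RPM in control replicates 1 to 4. miR-425-3p measured 43.0, 38.1, 29.4 and 41.0 RPM and 30.7, 44.1, 23.3 and 45.4 RPM in the same order. Replicate 3 of each group was the lowest for both 3p arms, and the groups overlapped. The sets by mitochondrial rRNA did not. miR-425-3p was at 41.0 to 45.4 RPM in the 4 libraries with little such rRNA and at 23.3 to 38.1 RPM in the 4 with more. miR-191-3p was at 63.5 to 71.0 RPM and 37.2 to 63.2 RPM. There the sets were barely apart, at 63.49 RPM in control replicate 4 and 63.24 RPM in activated replicate 2. This division was seen after the values and has no test. It was not particular to these arms. All miRNA reads together made up 33.2 to 47.1% of reads in the libraries with little mitochondrial rRNA and 17.8 to 28.9% in the others. The totals of both members overlapped between the sets. They were 60512 to 84957 and 42492 to 64916 RPM for miR-191, and 4973 to 7104 and 4541 to 6272 RPM for miR-425. The depth behind these 3p values was 346 to 1489 reads for miR-191 and 217 to 1020 reads for miR-425. There were 933 to 1322 reads of the 5p arm for each 3p read of miR-191 but 108 to 212 for miR-425. The members differed far less in their 3p reads, with 1.39 to 1.98 miR-191-3p reads per miR-425-3p read, than in their totals. The share of 5p reads did not separate the groups (two-sided exact permutation tests, p = 0.54 for miR-191 and p = 0.71 for miR-425, both 0.97 after adjustment).

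The fragments that carried most reads show where each arm began and ended, with the seed again in capitals and T for U as in the deposited sequences.
miR-191-5p, 22 nt: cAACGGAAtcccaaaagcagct
miR-191-5p, 21 nt: cAACGGAAtcccaaaagcagc
miR-191-5p, 20 nt: cAACGGAAtcccaaaagcag
miR-425-5p, 25 nt: aATGACACgatcactcccgttgagt
miR-425-5p, 23 nt: aATGACACgatcactcccgttga
miR-425-5p, 24 nt: aATGACACgatcactcccgttgag
miR-191-3p, 20 nt: gCTGCACTtggatttcgttc
miR-425-3p, 21 nt: cATCGGGAatgtcgtgtccgc
The 22 nt fragment of miR-191-5p alone held 54.2% of all miR-191 reads and ranked 3 among the fragments of all RNAs in each of the 8 libraries. It measured 35561, 35330, 29930 and 46176 RPM in activated replicates 1 to 4 and 35389, 36065, 22583 and 32437 RPM in control replicates 1 to 4. Activated replicate 4 and control replicate 3 were again the highest and the lowest. Its 21 nt and 20 nt forms had means of 8151 and 7283 RPM over the 8 libraries. The 25 nt fragment of miR-425-5p held 50.1% of all miR-425 reads, at 2684, 3065, 3155 and 3612 RPM in activated replicates 1 to 4 and 3137, 3003, 2204 and 2206 RPM in control replicates 1 to 4. Control replicates 3 and 4 were lower than every activated library, while control replicates 1 and 2 lay among them. The 23 nt and 24 nt forms averaged 1266 and 899.6 RPM.

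Of these leading 5p fragments, the 23 nt form of miR-425 was the only one with the annotated 3′ end. For miR-191-5p, 53.4 to 55.7% of reads stopped 1 base short of the annotated 3′ end and 7.04 to 9.57% ended on it. For miR-425-5p, 46.9 to 55.1% extended 2 bases past the annotated end and 20.1 to 25.4% ended on it. The annotated sequence was therefore a minority form of both members in each library. The extra bases match the hairpin, so bases read from the genome and bases added later that happen to match it cannot be told apart; reads with additions that do not match were not analysed here. Between groups, the share ending at the annotated position was 7.41 ± 0.421% (SD, n = 4) in activated and 8.38 ± 0.932% (SD, n = 4) in control mice for miR-191 (two-sided exact permutation test, p = 0.11; 0.94 after adjustment), and 22.2 ± 0.915% against 22.4 ± 2.22% for miR-425 (exact permutation p = 0.89; 0.97 after adjustment). Control replicate 4 had the highest share ending at the annotated position for both members (9.57% and 25.4%) and the lowest share of the 25 nt end of miR-425 (46.9%). Without it the control means were 7.99% and 21.4%, and the difference for miR-425 changed sign. For miR-191 the difference of activated minus control was −1.35 percentage points within the set with little mitochondrial rRNA and −0.58 within the other. In each set the activated libraries lay below the controls. For miR-425 the differences were −1.27 and 0.88. Its groups overlapped within the set with little mitochondrial rRNA, and in the other the activated libraries lay above the controls. These differences within sets were not tested. An exact permutation test of 2 libraries against 2 cannot give a p below 0.333.

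**Figure D4:**
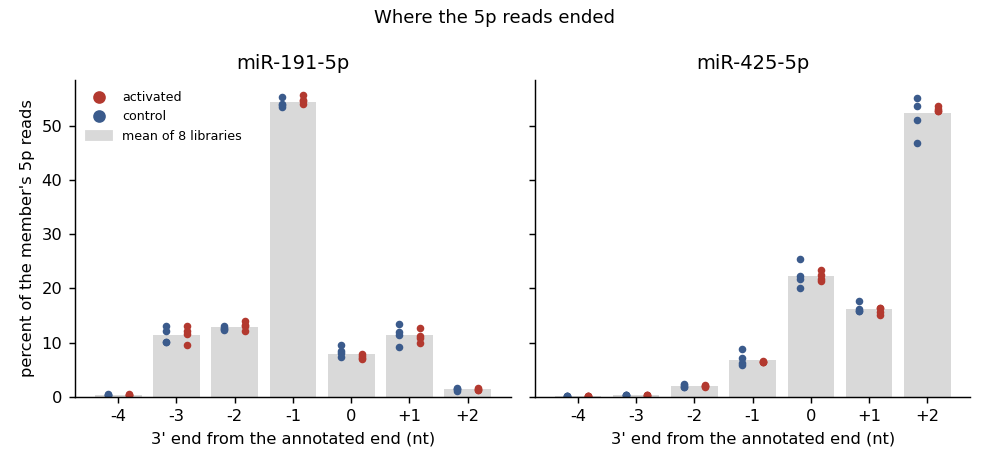
Percentage of miR-191-5p (left) and miR-425-5p (right) reads by the position of their 3′ end relative to the annotated end (0), in nt, with grey bars for the mean of 8 libraries and points for single libraries. The most frequent end in each library was −1 for miR-191-5p (53.4 to 55.7%) and +2 for miR-425-5p (46.9 to 55.1%).

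Of the 3′ ends of miR-191-5p, the one 3 bases short made up 12.1 to 13.1% of its 5p reads in the 4 libraries with little mitochondrial rRNA and 9.50 to 11.5% in the 4 with more. The sets were also apart at the end 4 bases short (0.356 to 0.484% and 0.258 to 0.344%), at the end 2 bases past (1.09 to 1.42% and 1.44 to 1.70%) and in the mean length of miR-191-5p reads (21.87 to 21.94 nt and 21.95 to 22.06 nt). They overlapped at the ends 2 and 1 bases short, at the annotated end (7.04 to 9.57% and 7.49 to 8.54%) and at the end 1 base past it (9.10 to 11.3% and 11.2 to 13.5%). For miR-425-5p the sets overlapped at each of these ends and in mean length (23.90 to 24.10 nt and 24.03 to 24.09 nt). The measures of miR-191-5p come from the same reads. The division was noticed after the values were seen, and it has no test.

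The 5′ ends, which set the seed, were far more uniform. On the 5p arm 99.4 to 99.5% of miR-191 reads and 96.9 to 97.2% of miR-425 reads began at the annotated base. A start 1 base downstream was seen in 0.452 to 0.546% of miR-191-5p reads and in 2.13 to 2.41% of miR-425-5p reads, so that every library held a larger shifted share for miR-425. The seeds of these shifted reads, ACGGAAU and UGACACG, matched no entry of the RefSeq table. The share starting at the annotated base did not separate the groups (two-sided exact permutation tests, p = 0.97 for miR-191 and p = 0.57 for miR-425, both 0.97 after adjustment), nor did the share of reads of 20 to 25 nt (exact permutation p = 0.86 and p = 0.57, both 0.97 after adjustment).

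The 3p arm of miR-425 departed from its annotation. Only 2.85 to 11.8% of its reads began at the annotated base, whereas 79.3 to 92.2% began 1 base upstream, as in the 21 nt fragment shown above. This start gives the seed AUCGGGA in place of UCGGGAA, and no mature entry of the RefSeq table has it. By contrast, 84.2 to 93.7% of miR-191-3p reads began at the annotated base. The most abundant miR-425-3p fragment, of 21 nt, averaged 15.4 RPM over the 8 libraries, the 22 nt form with the same start 11.3 RPM and a 19 nt form 2.96 RPM. The leading miR-191-3p fragments, of 20, 21 and 22 nt, averaged 22.3, 14.3 and 12.0 RPM.

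Fragment by fragment, 36 of the 183 distinct fragments (22 of 97 for miR-191 and 14 of 86 for miR-425) reached 50 reads in at least 4 libraries and entered the edgeR test over 12077 fragments of all RNAs. None of the 36 was called, against a background of 0.505% (61 fragments, every one of them higher in activated mice), and none had an unadjusted p under 0.05. That background was not stable: it was 0 with any single library left out except activated replicate 2 (84 fragments). It was also 0 with scaling to the total of the tested fragments without TMM and with the replicate block. DESeq2 called 240 fragments (1.99%; 195 higher and 45 lower), none of them a member. The log2 fold change was above 0 for 30 and below 0 for 6 of the member fragments, from −0.17 to 0.56 with a median of 0.12, beside a median of 0.01 over all fragments tested; these fragments overlap in sequence and share their source, so that they are not separate observations. This direction rested on single libraries: without activated replicate 4 there were 12 above and 24 below 0 (median −0.04), without activated replicate 1 21 and 15 (median 0.04), without control replicate 3 20 and 16 (median 0.01), and without control replicate 4 36 and 0 (median 0.26). The 22 nt fragment of miR-191-5p had a log2 fold change of 0.16 (SE 0.33) and the 25 nt fragment of miR-425-5p one of 0.20 (SE 0.28), each with an edgeR adjusted p of 0.999.

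Summed by length, 18 features of the members, 15 to 25 nt for miR-191 and 19 to 25 nt for miR-425, were among the 3211 tested. All 18 had a positive log2 fold change, between 0.07 and 0.34, and none was called by edgeR against a background of 0% (before adjustment, 55 higher and 172 lower features had p under 0.05) or by DESeq2, which called 12 features (0.374%). The median over all features tested was −0.03. Lengths of the same miRNA share their source, so that the 18 are not separate observations. Without control replicate 3, 14 of the 18 were positive and the median fell from 0.25 to 0.09, with the lowest at −0.23; without activated replicate 4, 16 were positive, with a median of 0.17. The largest estimate was that of the 25 nt reads of miR-425 (0.34, SE 0.26, edgeR adjusted p = 0.75), and the smallest was that of the 18 nt reads of miR-191 (0.07, SE 0.49).

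**Figure D5:**
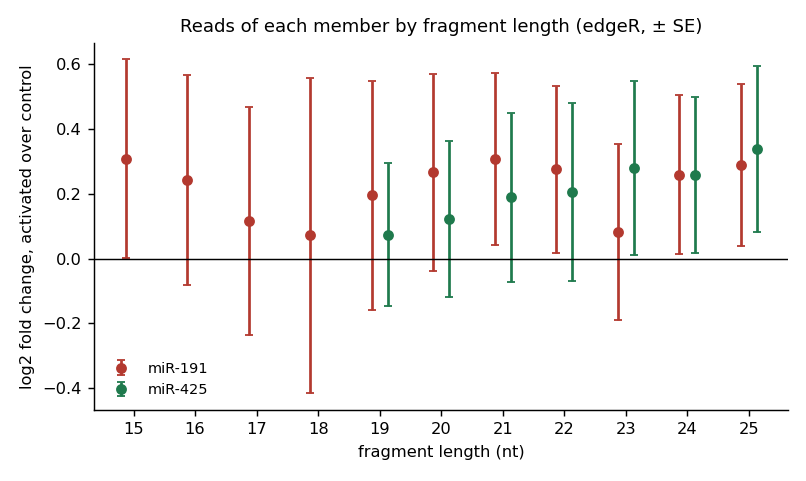
Log2 fold change of activated over control (edgeR, with SE) for reads of miR-191 and miR-425 summed by fragment length in nt. All 18 estimates lie between 0.07 and 0.34 with all 8 libraries included (14 of 18 are positive without control replicate 3), and most error bars of 1 SE reach close to 0 or cross it.

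Other miRNAs gave a scale for these estimates. Among miRNAs used as qPCR references, both members included, 12 of 17 tested species had a positive estimate, with a median log2 fold change of 0.23. The clusters miR-17-92 and miR-106b-25, which promote proliferation, had 8 of 8 positive with a median of 0.29. The miR-103 and miR-107 family had 3 of 4 positive with a median of 0.25. The clusters of miR-23, miR-24 and miR-27 had 0 of 8 positive with a median of −0.56, but without control replicate 4, which held 13798 RPM of them against 2113 to 4773 RPM elsewhere, the count was 7 of 8 and the median 0.55. The testis and sperm list had 18 of 18 positive with a median of 0.32. No species of these lists was called. The reference list also holds miR-25, miR-93, miR-24 and the miR-103 and miR-107 family. The lists therefore share species, and their counts are not separate observations. Leaving out control replicate 4 gave 17 of 17 positive references, 7 of 8 for miR-17-92 and miR-106b-25, and 4 of 4 for miR-103 and miR-107. The testis and sperm list stayed at 18 of 18, and 253 of all 304 miRNA species were then positive. Without control replicate 4 the medians were 0.48 for the references, 0.42, 0.69 and 0.47 for the miR-17-92, miR-103 and testis lists, and 0.40 for all 304 miRNA species, so that the members (0.29 and 0.27) then lay below the middle of the miRNAs.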

How the data were processed

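The authors prepared libraries with the NEXTFLEX Small RNA-Seq kit and processed reads with SPORTS1.1, with Bowtie and mm10 named in the submitters' processing notes. The deposited tables give raw counts of each distinct sequence with its annotation and are not normalized; the tables of class totals were not used here. Groups were taken from the labels. Reads of the members were summed by miRNA, fragment and length and divided by the library total to give RPM. Counts were tested with edgeR 4.0.16 (TMM, quasi-likelihood) in R 4.3.3, with Benjamini-Hochberg adjustment over each whole table; DESeq2 1.42.0 with apeglm 1.24.0 was an alternative. The code was tested on simulated data. For shares and RPM, two-sided exact permutation tests used all 70 assignments (SciPy 1.17.1). No row named a member beside another RNA, and 107 to 123 rows per library named a member. Rows with no annotation (9.53 to 23.7% of reads) stayed out of the tests of RNA species and of lengths and remained in the library totals. Each fragment was placed on its RefSeq hairpin by exact match; 2 fell outside both arms. Named were both members, the 3 fragments of highest mean RPM for each arm, and the 5 species most alike to each member. The members and lists were chosen with earlier results of these data known. The lists were the clusters miR-17-92 and miR-106b-25, miR-103 and miR-107, miR-23/24/27, qPCR references, and erythroid, leukocyte, epithelial, smooth muscle, and testis and sperm miRNAs. Reads carry no molecular identifiers in these counts, so the spread between mice was taken as the error.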

Additional observations from a re-analysis of the deposited data

Results flagged for a closer look

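Among 52 measures in each group of 4 libraries (104 groups), 11 held a library whose gap to its neighbour was an unusually large part of the range, where chance gives about 5%. Control replicate 4 exceeded the remaining controls many times over in the smooth muscle list (35290 RPM against 200.1 to 362 RPM), the epithelial list (19420 RPM against 1364 to 2733 RPM) and the miR-23/24/27 list (13798 RPM against 2113 to 2798 RPM). Activated replicate 1 was far above the other activated libraries in the epithelial list (3476 RPM against 1085 to 1196 RPM) and the erythroid list (298 RPM against 83.5 to 113 RPM). In control replicate 3, miR-191-3p was low at 37.2 RPM, with 60.8 to 64.4 RPM in the other controls, and 17.8% of miR-425-5p reads ended 1 base past the annotated end, with 15.9 to 16.1% in the others. In control replicate 2, 2.41% of miR-425-5p reads started 1 base downstream (2.13 to 2.17% in the others), and 31.0% of miR-425-3p reads ended at the annotated position (36.7 to 37.8% in the others). In activated replicate 3, 6.69% of miR-425-5p reads ended 1 base short (6.43 to 6.47% in the others), and there were 1.39 miR-191-3p reads per miR-425-3p read (1.62 to 1.66 in the others). What underlies these values was not tested.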

How the results depend on the processing

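The log2 fold changes of both members stayed positive and uncalled under all 20 alternatives, from 0.02 to 0.31 for miR-191 and from 0.04 to 0.39 for miR-425, with lowest adjusted p of 0.48 and 0.49; leaving out single libraries gave 0.10 to 0.31 and 0.17 to 0.39. No member fragment or length was called under any of the 13 and 11 alternatives run, but the share of positive estimates moved with single libraries left out: 12 to 36 of 36 fragments and 14 to 18 of 18 lengths. The log2 ratio of mean RPM, 0.20 for miR-191 and 0.21 for miR-425, stayed positive under all 14 alternatives but came near 0 in some: for miR-191 it ranged from 0.03 (annotated mature sequence alone) to 0.30, with 0.08 relative to miRNA reads, and for miR-425 from 0.08 (relative to miRNA reads) to 0.28, with a lowest exact permutation p of 0.23 for miR-191 and 0.11 for miR-425; the alternatives with 2 against 2 libraries cannot go below 0.333; no row named a member beside other RNAs, so that alternative gave no value. The group difference in the ratio of miR-191 to miR-425, −0.0071 on the log2 scale, changed size and sign: 0.0279 in the libraries with little mitochondrial rRNA, −0.172 with the annotated mature sequences alone (exact permutation p = 0.26), and −0.0787 to 0.102 with single libraries left out. Likewise, in percentage points of activated minus control, the annotated 5′ start of miR-191 was 0.00413 with reads of 20 to 25 nt, and leaving out single libraries gave −0.0142 to 0.0192 for that start, −0.0454 to 0.0721 for miR-191 reads of 20 to 25 nt, −0.0261 to 0.115 for the 5p share of miR-425, −0.956 to 0.813 for its annotated 3′ end and −0.00258 to 0.0395 for its reads of 20 to 25 nt. The ranks by mean RPM, 2 and 7, were unchanged with any single library left out, an alternative chosen after seeing the data, as were the values without control replicate 4 for lists, likeness and stability. Without that library, list medians moved from −5.53 to −0.20 (smooth muscle, 2 tested species) and −2.15 to −0.09 (epithelial, 7). They moved from −1.96 to −2.01 (erythroid, 3) and 0.28 to 0.64 (leukocyte, 4).

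Whether replicate numbers pair the samples is not known. Correlations of same-numbered deviations over RNA species were −0.45, −0.04, 0.50 and −0.13. Over fragments they were −0.63, −0.55, 0.59 and 0.51. There, the negative pairs joined libraries of different sets by mitochondrial rRNA, and the positive pairs joined libraries of the same set. Pairs of unlike number did the same, as in activated replicate 4 with control replicate 2 (0.66) and with control replicate 3 (−0.60). These correlations followed the sets and so cannot decide whether the numbers pair the mice. With the replicate block the log2 fold changes were 0.23 (edgeR adjusted p = 0.72) for miR-191 and 0.24 (adjusted p = 0.75) for miR-425, and the mean same-number difference of their log2 ratio was −0.0071 (exact sign-flip p = 0.88).

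Calls over all RNAs depended on settings. edgeR called 61 fragments and DESeq2 called 240 (195 higher and 45 lower). A minimum of 10 reads gave 202. Scaling to the total of the tested fragments without TMM gave 0, as did the replicate block. Leaving out any single library except activated replicate 2 (84) also gave 0. Without TMM the median of all fragments moved from 0.01 to 0.12. Among species DESeq2 called 3 where edgeR called 0, and among lengths 12 where edgeR called 0, or 1 without control replicate 3. Depth was lowest for rare forms: the 3p arms rested on 217 to 1489 reads per library, and their single fragments on fewer.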
